A study of Mus musculus with 25 samples.

Results

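Apoptosis genes that p53 is known to switch on were measured in mouse liver, untreated or 24 h after a carcinogen. The livers were with and without p53 and Rb in the hepatocytes. The genes are Bax, Bbc3, Pmaip1, Fas, Tnfrsf10b, Apaf1, Eda2r, Aen, Perp and Phlda3, a list of 10 taken by name from the probe set annotation. Each of 9 had 1 probe set, out of 19938 genes with a named probe set in all, and Bax was not analysed here. The question is which of their rises after damage depend on p53.

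p53 is a transcription factor that is stabilised when DNA is damaged, and its targets either hold the cell cycle and repair the DNA or move the cell towards death. The death targets enter by separate doors. Some are receptors of the TNF receptor family on the cell surface. Others are small BH3-only proteins that promote the opening of the mitochondrial outer membrane. Another is the scaffold that starts the caspase cascade once cytochrome c is released. Hepatocytes are known for a strong arrest response to damage, and for their sensitivity to Fas.

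Expression was measured on 25 1-colour Affymetrix arrays of RNA from frozen livers of strain FVB;129. Genes flanked by loxP sites were deleted by a Cre transgene under the promoter of albumin, which works in hepatocytes, so other liver cells keep both genes. The genotypes lack Rb and p53 (DKO), p53 (p53KO), Rb (RbKO) or neither (WT), and the labels do not say whether the WT mice carried Cre or loxP sites. Diethylnitrosamine (DEN), which hepatocytes turn into a DNA alkylating agent, was given by intraperitoneal injection to pups of 14 days (20 mg/kg), with 24 h until the livers were taken. The groups are DEN DKO (5 arrays), DEN p53KO (5), DEN RbKO (4), DEN WT (5), untreated DKO (3) and untreated WT (3). For the untreated groups the labels name no treatment, whereas the series text speaks of saline controls.

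Untreated p53KO livers were not analysed here. The change that DEN brings with p53 deleted in hepatocytes is therefore read in DKO livers alone, where Rb is deleted too. Other cells of these livers keep p53, and how complete the deletion was in hepatocytes was not tested. Livers or arrays called without p53 below are those with this deletion. After DEN, p53 deletion can be read with Rb present (p53KO against WT) and with Rb deleted (DKO against RbKO). Nothing in the labels says that the replicates are separate animals, so p-values cover only the spread between these arrays, which may be technical, and the number of arrays limits the precision of each value. In whole liver, fewer cells of a type and less RNA per cell cannot be told apart.

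The array names place 16 arrays of all 6 groups in set 1, 4 arrays in set 2 (DEN RbKO replicate 4, DEN WT replicates 4 and 5, untreated WT replicate 3) and 5 in set 3 (DEN DKO replicates 4 and 5, DEN p53KO replicates 3, 4 and 5). Set 2 stood apart on the first principal component, which carried 25.8% of the variance, with a mean of 46.6 against -11.8 in set 1 and 0.641 in set 3. Each comparison was therefore fitted in limma with the set as a term, genes were called where the p adjusted by Benjamini-Hochberg over 15951 genes was under 0.05, and the value within set 1 is given for the genes described in full and wherever its call differs. Set 3 holds only arrays without p53, so its term rests on the p53KO and DKO arrays of set 1. Xist, a female-specific RNA, stood in for the sexes, which the labels do not give. It was high (9.82 and 10.55 log2) on untreated WT replicates 1 and 3 and low (4.15) on replicate 2, whereas all 5 DEN WT arrays (3.38 to 3.92) and all 3 untreated DKO arrays (2.87 to 3.39) were low. In DEN DKO and DEN p53KO livers 2 of 5 arrays each were high, as were 2 of 4 in DEN RbKO livers. The share of arrays with high Xist thus differs between the groups of every comparison with a WT group. It differs too between DEN DKO (2 of 5) and untreated DKO livers (all 3 low), and slightly between DEN DKO and DEN RbKO livers. Calls that changed with Xist as a covariate are given beside the gene. The 9 hepatocyte markers measured averaged between 7.70 (Hnf4a) and 12.67 (Alb) log2, which is the 90.9 to the 99.99 percentile of all genes.

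Promoter windows of RefSeq (GRCm38.p6, from 250 bases before a start) were held for Aen, Apaf1, Bbc3, Eda2r, Fas and Phlda3, and they are shown as the letters upstream of genes whose response with and without p53 is compared below. The p53 half-site consensus, 10 bases long and the same on both strands, was searched with its central C and G required. A pair of half-sites up to 13 bases apart, with up to 3 mismatches in all, was found for Aen and Bbc3, and 12.96% of 32851 mouse promoters hold such a pair. Capitals mark the half-sites. Coordinates are those of the 30 bases printed, flanks included, and distances are counted from the first capital. The Aen window is chr7:78895932-78895961 (plus strand), with the pair beginning 121 bases before a start of the gene. A Bbc3 window is chr7:16309481-16309510 (plus strand), with the pair beginning 97 bases before a start. Bbc3 has a second pair, with 2 bases between its half-sites, in the window chr7:16310152-16310181 (plus strand), beginning 105 bases before another start. Each of the 3 pairs has 3 mismatches.
Aen pair: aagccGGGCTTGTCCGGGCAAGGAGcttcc
Bbc3 pair: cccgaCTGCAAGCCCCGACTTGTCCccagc
Bbc3 second pair: ggagGAGCGTGGCCccGGGCTCGCTCgagt
The other 4 promoters held no such pair, and their closest single half-site is given instead. That of Eda2r has 1 mismatch (chrX:97377407-97377436, minus strand), and those of Apaf1 (chr10:91082814-91082843, minus strand), Fas (chr19:34290602-34290631, plus strand) and Phlda3 (chr1:135766032-135766061, plus strand) have 2 each. For Apaf1 and Fas it is 1 of 3 and 1 of 2 half-sites with as few mismatches.
Eda2r half-site: cccacagattAGGCTAGATCtaactttggg
Apaf1 half-site: cgctcaaccaGGGCTTGCGGtcacgcgccg
Fas half-site: gcgtgccaggGGGCGGGCCTaggcaaagta
Phlda3 half-site: cgccccccggGGCCCTGTCCgggcgggtgc
A half-site with up to 1 mismatch is in 44.73% of all promoters and one with up to 2 is in 88.92%, so single matches of this kind are common. The first half-site of the Aen pair has 0 mismatches, which 7.126% of promoters match. These are matches of letters in a short window and say nothing of binding.

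DEN raised 6 of the 9 genes in WT livers, against 2.08% of all genes that were called higher in the same comparison. They are the receptors Fas, Tnfrsf10b and Eda2r, the scaffold Apaf1, the nuclease gene Aen and the Akt inhibitor gene Phlda3. The BH3-only genes Bbc3 and Pmaip1 and the membrane protein gene Perp were not called. The median difference of the 9 was 0.87 log2, beside 0.02 over all genes tested. Eda2r had a mean above the cut for dim genes only because of its level after DEN, and without it 5 of 8 genes were called, with a median of 0.71.

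**Figure D1:**
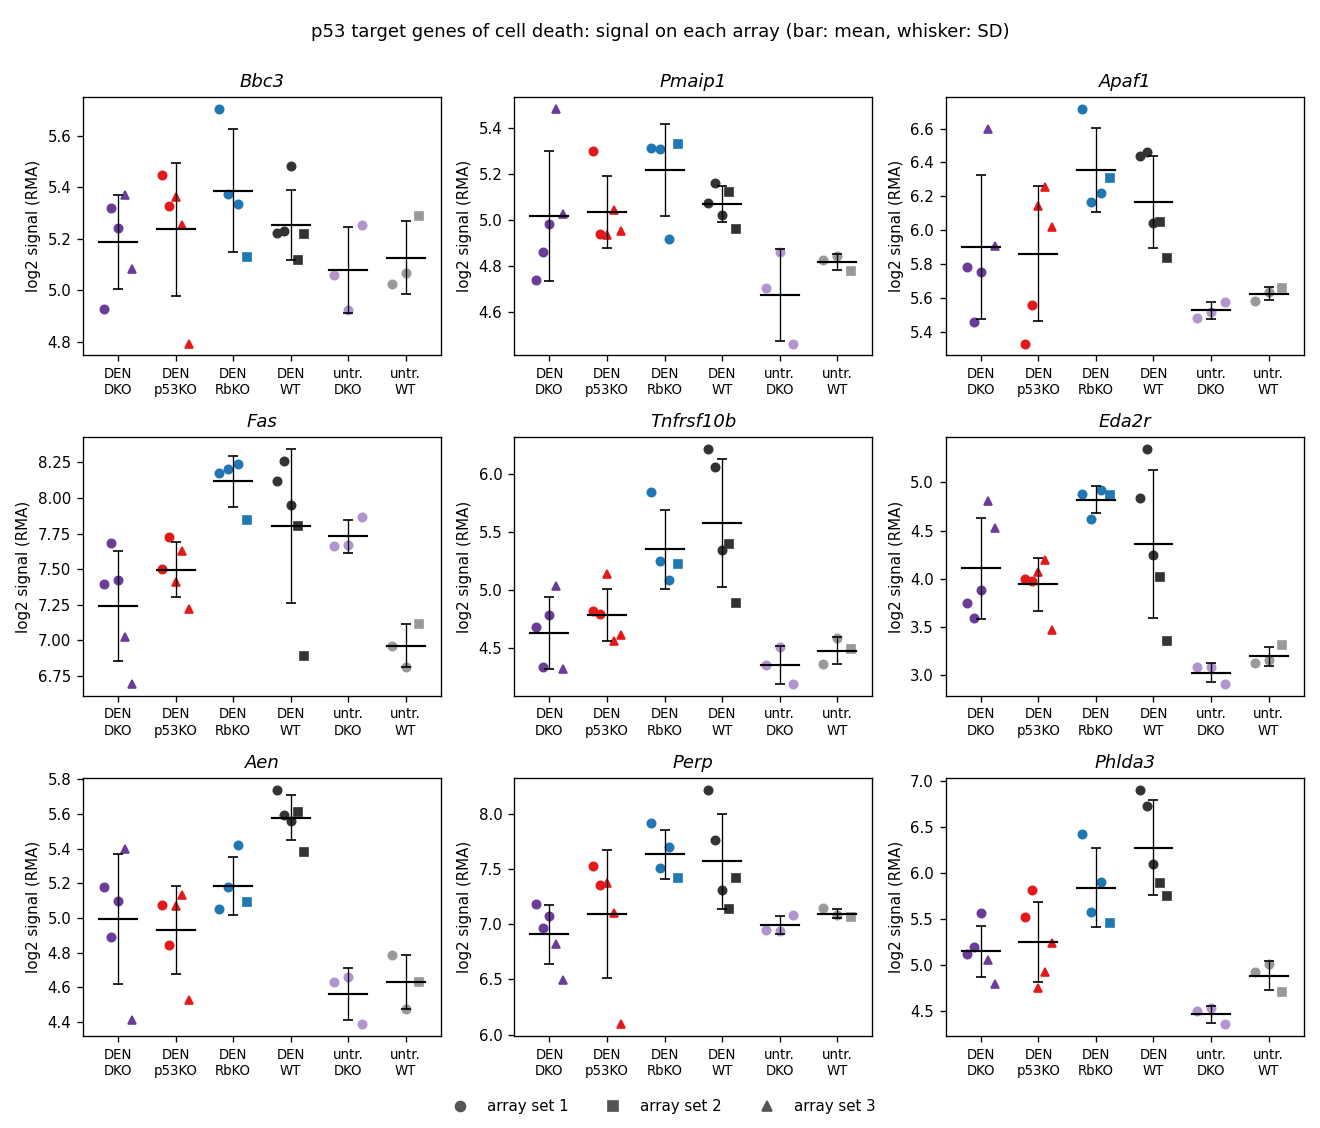
Log2 signal (y axis) of the 9 measured genes on each array, in the 4 DEN groups and the 2 untreated groups (x axis). Points are arrays with the array set as the shape, bars are means and whiskers are SD. In the Phlda3 panel every DEN WT array is above 5.7, and every untreated array is at 5.01 or lower.

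Fas encodes the receptor of Fas ligand, through which hepatocytes can be killed. Its log2 signal was 8.12, 8.26, 7.95, 7.80 and 6.89 in DEN WT livers, against 6.96, 6.81 and 7.11 in untreated WT livers. All DEN arrays except replicate 5 were above the untreated ones, and that array lay among them. Fas rose by 0.87 log2 (SE 0.18, 1.82-fold, adjusted p = 0.00602), and by 1.22 within set 1 (adjusted p = 1.35e-05). Within set 2 the difference was 0.23, from 2 DEN arrays and 1 untreated array. The call was lost without untreated WT replicate 1 (adjusted p = 0.0599) or 2 (0.0777).

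Tnfrsf10b encodes the mouse receptor of the death ligand TRAIL. Its signal was 6.22, 6.06, 5.35, 5.40 and 4.89 log2 in DEN WT livers, against 4.36, 4.59 and 4.49 in untreated WT livers. The groups did not overlap, with replicate 5 again the lowest of the DEN arrays. The gene rose by 1.13 log2 (SE 0.21, 2.18-fold, adjusted p = 0.00249), by 1.40 within set 1 and by 0.65 within set 2, and the call was kept without any one of the 8 arrays.

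Eda2r encodes the receptor of ectodysplasin A2, another member of the TNF receptor family. It gave 4.84, 5.35, 4.25, 4.02 and 3.35 log2 in DEN WT livers, against 3.12, 3.15 and 3.31 in untreated WT livers. All untreated values lie under the cut of 3.33 log2 used for dim genes, so the gene was tested only through its level after DEN and its difference is a description. DEN replicates 1 and 2 were high, and replicate 5 was just above the untreated arrays. The difference was 1.20 log2 (SE 0.26, adjusted p = 0.00758, or 0.00860 with no filter on dim genes), with 1.67 within set 1 and 0.38 within set 2, and the call was lost without untreated WT replicate 1 (adjusted p = 0.0692) or 2 (0.0635).

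Apaf1, the protein that binds cytochrome c and assembles the apoptosome, had 6.44, 6.46, 6.04, 6.05 and 5.84 log2 in DEN WT livers, against 5.58, 5.64 and 5.66 in untreated WT livers. No DEN array was as low as an untreated one. The rise of 0.55 log2 (SE 0.15, 1.47-fold, adjusted p = 0.0390) was the smallest of the 6, with 0.71 within set 1 (adjusted p = 0.00942) and 0.28 within set 2. It missed the threshold without untreated WT replicate 1 (adjusted p = 0.195) or 2 (0.155) or without DEN WT replicate 1 (0.101), 2 (0.0942) or 4 (0.0654), with Xist as a covariate (0.40 log2, adjusted p = 0.180) and with the set as a random block (0.54, adjusted p = 0.0945).

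Aen encodes an apoptosis-enhancing nuclease. Its signal was 5.74, 5.60, 5.56, 5.61 and 5.38 log2 in DEN WT livers, against 4.79, 4.48 and 4.63 in untreated WT livers. The DEN arrays were close together and all above the untreated ones, and this includes replicate 5. Aen rose by 0.95 log2 (SE 0.17, 1.94-fold, adjusted p = 0.00127), with 1.0 within set 1 and 0.87 within set 2, and no single array decided the call.

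Phlda3, which blocks the survival kinase Akt at the membrane, gave 6.91, 6.73, 6.10, 5.89 and 5.75 log2 in DEN WT livers, against 4.93, 5.01 and 4.71 in untreated WT livers. The groups were separated by more than 0.5 log2. Its rise of 1.43 log2 (SE 0.18, 2.69-fold, adjusted p = 2.44e-05) was the largest of the 9 genes, with 1.61 within set 1 and 1.11 within set 2.

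Perp encodes a membrane protein of desmosomes that p53 induces in dying cells. It had 8.22, 7.76, 7.31, 7.14 and 7.41 log2 in DEN WT livers, against 7.14, 7.08 and 7.06 in untreated WT livers. Only replicate 4 of the DEN arrays reached down to the untreated range. The difference of 0.50 log2 (95% interval 0.08 to 0.91, adjusted p = 0.196) did not pass the test, whereas within set 1 it was 0.65 (adjusted p = 0.0309).

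Bbc3 and Pmaip1 encode Puma and Noxa, the BH3-only proteins through which p53 acts on mitochondria. Bbc3 gave 5.22, 5.23, 5.48, 5.12 and 5.22 log2 in DEN WT livers, against 5.02, 5.07 and 5.29 in untreated WT livers, and these ranges overlap. The difference was 0.13 log2 with a 95% interval of -0.17 to 0.43 (adjusted p = 0.729). Pmaip1 gave 5.07, 5.16, 5.02, 5.12 and 4.96 log2 in DEN WT livers, against 4.83, 4.84 and 4.78 in untreated WT livers. Here every DEN array was above every untreated one, but the difference of 0.25 log2 (95% interval -0.04 to 0.54, adjusted p = 0.381) did not pass the test. Without the set term, Fas (0.84, adjusted p = 0.0839), Eda2r (1.17, adjusted p = 0.0633) and Apaf1 (0.54, adjusted p = 0.340) missed the threshold in WT livers, as they did with only these 2 groups in the fit (adjusted p between 0.0834 and 0.109). In all, 6 of the 9 genes had every DEN WT array above every untreated WT array (Pmaip1, Tnfrsf10b, Apaf1, Eda2r, Aen and Phlda3), which was so for 3.18% of all genes.

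In DKO livers, which lack p53 and Rb in hepatocytes, DEN raised only Eda2r and Phlda3 of the 9 genes at the threshold, against 4.49% of all genes called higher. The same 2 genes were those without overlap between DEN and untreated DKO arrays, against 8.19% of all genes with every DEN array above. The median difference of the 9 genes was 0.27 log2, beside 0.00 over all genes tested. Without Eda2r, whose untreated arrays lie under the cut for dim genes, 1 of 8 genes was called and the median was 0.21.

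Phlda3 was at 5.12, 5.20, 5.56, 5.06 and 4.80 log2 in DEN DKO livers, against 4.50, 4.54 and 4.36 in untreated DKO livers. The DEN arrays were all higher. Phlda3 rose by 0.90 log2 (SE 0.19, adjusted p = 0.00142), and by 0.83 within set 1 (adjusted p = 0.00554). Eda2r was at 3.75, 3.59, 3.88, 4.80 and 4.52 log2 in DEN DKO livers, against 3.08, 3.08 and 2.90 in untreated DKO livers. The 2 highest of these arrays are those of set 3, and the untreated ones again lie under the cut for dim genes. The Eda2r difference was 0.92 log2 (SE 0.27, adjusted p = 0.0177, or 0.0203 with no filter on dim genes), with 0.72 within set 1 (adjusted p = 0.00814). The Eda2r call was lost without untreated DKO replicate 3 (adjusted p = 0.0681) and without set 3 (0.72 log2, adjusted p = 0.0668), and after a second quantile normalization (0.76, adjusted p = 0.0575). That of Phlda3 was lost without the set term (0.68, adjusted p = 0.0688).

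Fas, called in WT livers, was not called in DKO livers. Its signal was 7.39, 7.69, 7.42, 7.02 and 6.69 log2 in DEN DKO livers, against 7.66, 7.67 and 7.87 in untreated DKO livers. All DEN arrays but replicate 2 were below the untreated ones. The difference was -0.32 log2 (95% interval -0.72 to 0.08, adjusted p = 0.255). The untreated DKO arrays were all above the 6.81 to 7.11 of untreated WT livers.

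Aen had 5.18, 4.89, 5.10, 5.40 and 4.41 log2 in DEN DKO livers, against 4.63, 4.66 and 4.39 in untreated DKO livers. Replicate 5 of the DEN arrays lay in the untreated range and the others above it. Its difference of 0.47 log2 (95% interval 0.11 to 0.84, adjusted p = 0.0582) was just outside the threshold, and it was called without DEN DKO replicate 5 (0.56, adjusted p = 0.00996) and within set 1 (0.49, adjusted p = 0.00890). Tnfrsf10b differed by 0.27 (95% interval -0.19 to 0.73), Apaf1 by 0.12 (-0.21 to 0.45) and Perp by 0.12 (-0.33 to 0.56). Bbc3 (0.15) and Pmaip1 (0.29) differed by about what they did in WT livers, and neither was called.

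**Figure D2:**
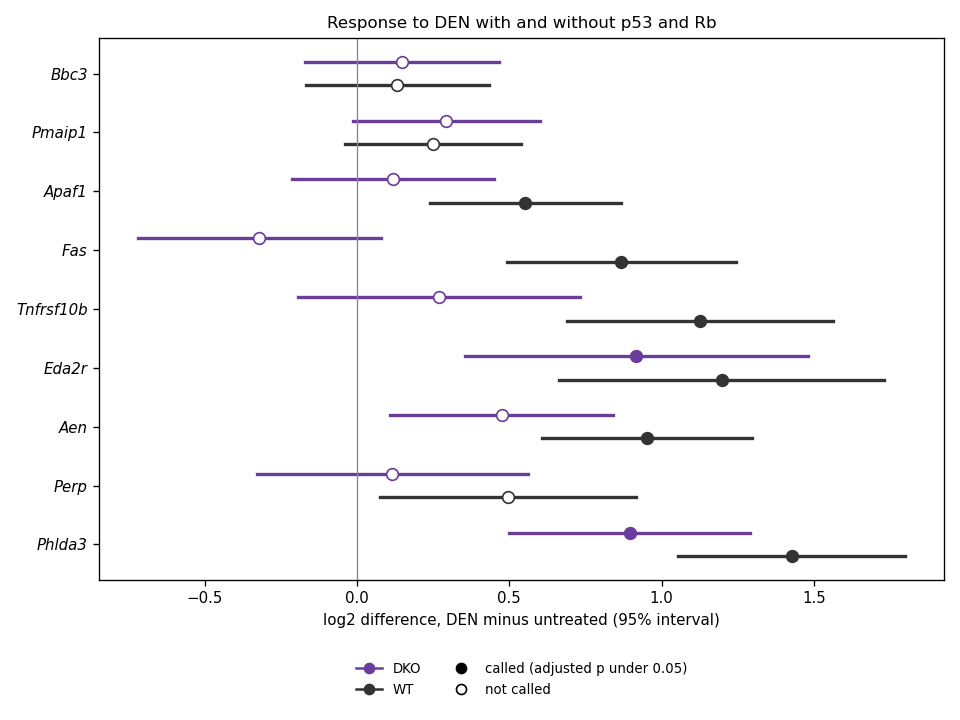
Log2 difference between DEN and untreated livers (x axis) for each gene (y axis) in DKO and in WT livers, with 95% intervals from the limma fit. Filled points passed the threshold: Eda2r and Phlda3 in DKO livers, and 6 genes in WT livers.

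Whether the response itself differed between the genotypes was tested as the response in DKO livers minus that in WT livers. It was lower for Fas alone among the 9 genes, against 8.54% of all genes called lower, so a count of 1 is near the background. For Fas the difference of responses was -1.19 log2 (SE 0.27, adjusted p = 0.00566), and -1.45 within set 1 (adjusted p = 0.000204). It was called without any one of the 16 arrays and under all 15 other settings tried. Some of these settings, such as other filters on dim genes and the mean of probe sets, leave its estimate unchanged. Tnfrsf10b followed at -0.86 (95% interval -1.49 to -0.22, adjusted p = 0.0801), and was called within set 1 (-1.15, adjusted p = 0.0289), without DEN WT replicate 3 (-0.97, adjusted p = 0.0440) and without DEN WT replicate 5 (-0.99, adjusted p = 0.0376).

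For Phlda3 the responses differed by -0.53 log2 (95% interval -1.08 to 0.01), for Aen by -0.48 (-0.98 to 0.02), for Apaf1 by -0.43 (-0.89 to 0.02) and for Perp by -0.38 (-0.99 to 0.23). Within set 1 these differences were -0.78, -0.50, -0.57 and -0.57 in that order, none called (adjusted p between 0.127 and 0.187). Eda2r had -0.28 with an interval of -1.06 to 0.50, and -0.95 within set 1 (adjusted p = 0.0441). Bbc3 (0.01) and Pmaip1 (0.04) were near 0. Phlda3, which lies above the cut for dim genes in every group, passed the test for its rise in both genotypes.

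Fas and Phlda3 were also compared before treatment. Fas was 0.64 log2 higher in untreated DKO than in untreated WT livers (95% interval 0.20 to 1.07, adjusted p = 0.161), which did not pass the test over all arrays. Within set 1 it was 0.84 (adjusted p = 0.000790), and without untreated WT replicate 3 it was called (0.84, adjusted p = 0.0262). Of the 9 genes, 0 were called in untreated DKO against untreated WT livers by limma, and 1.11% of all genes were called in either direction. An unadjusted p under 0.05 was seen for 2 of the 9 (Fas and Phlda3), against 12.0% of all genes. Phlda3 was at 4.50, 4.54 and 4.36 log2 in untreated DKO livers, against 4.93, 5.01 and 4.71 in untreated WT livers. The Phlda3 difference was -0.61 log2 (95% interval -1.04 to -0.18, adjusted p = 0.184). The untreated DKO and WT arrays did not overlap for Phlda3, nor for Fas, Apaf1 and Eda2r. How many of all genes are separated in this way was not counted.

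Markers of several other liver cell types were called in these comparisons. For the difference of responses, 8.54% of all genes were called lower. Of 9 neutrophil and myeloid precursor markers tested (all 10 but Ly6g, which lies under the cut for dim genes), 5 were lower in DEN than in untreated DKO livers, where 16.5% of all genes were called lower, and 4 had a lower response in DKO than in WT. The mean log2 level of that list ran from 4.81 to 5.58 in DEN DKO and from 4.32 to 5.35 in DEN WT, and from 5.75 to 6.49 in untreated DKO and from 4.56 to 4.75 in untreated WT livers. Of 10 endothelial markers, all above the cut for dim genes, 9 were lower in DEN than in untreated DKO livers and 4 had a lower response in DKO (2 with each array centred on the median of the genes tested). Of 10 stellate cell and fibroblast markers, 6 were lower and 1 was higher in DEN than in untreated DKO livers, and 2 had a lower response in DKO. Their mean level ran from 5.58 to 5.83 log2 in DEN DKO and from 5.77 to 6.08 in DEN WT, and from 6.23 to 6.33 in untreated DKO and from 6.07 to 6.18 in untreated WT livers. Of 10 Kupffer cell and macrophage markers, 4 were lower in DEN than in untreated DKO livers and 1 had a lower response, which is near the background. Their mean level ran from 6.11 to 6.57 log2 in DEN DKO and from 5.96 to 6.85 in DEN WT, and from 6.48 to 6.65 in untreated DKO and from 6.12 to 6.50 in untreated WT livers. Of 3 erythroid markers tested, 2 were lower in DEN than in untreated DKO livers and 0 had a lower response. Of 6 lymphocyte markers tested 1 was lower in DEN than in untreated DKO livers, and of 5 cholangiocyte markers 0 were. In both of these lists 0 had a lower response. The part of these cell types in the values of Fas and the other genes was not tested.

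With Rb present, p53 deletion was read from p53KO against WT livers after DEN. Of the 9 genes, 3 were lower in p53KO livers (Tnfrsf10b, Apaf1 and Phlda3), against 1.07% of all genes called lower. All 9 had an estimate below 0, with a median of -0.63 log2, beside -0.01 over all genes tested, of which 47.6% were above 0. Within set 1, 6 of the 9 were called, the other 3 being Fas, Eda2r and Aen. This comparison uses the same DEN WT arrays as the response in WT livers, so its values are given side by side with that one and not as a second line of evidence.

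Tnfrsf10b was at 4.82, 4.80, 5.14, 4.56 and 4.61 log2 in DEN p53KO livers, against 6.22, 6.06, 5.35, 5.40 and 4.89 in DEN WT livers. The ranges meet only where p53KO replicate 3 exceeded WT replicate 5. Tnfrsf10b fell by 0.96 log2 in p53KO livers (SE 0.23, adjusted p = 0.0314), and by 1.06 within set 1 (adjusted p = 0.0117). The call was lost without DEN WT replicate 1 (adjusted p = 0.0675) or 2 (0.0721), and without DEN p53KO replicate 1 (0.0925) or 2 (0.118). It was also lost with Xist as a covariate (-0.88, adjusted p = 0.0586) and with only these 2 groups in the fit (-1.06, adjusted p = 0.0613), where the call of Phlda3 went too (-0.91, adjusted p = 0.0662).

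Phlda3 was at 5.52, 5.82, 4.75, 4.93 and 5.24 log2 in DEN p53KO livers, against 6.91, 6.73, 6.10, 5.89 and 5.75 in DEN WT livers. Of the p53KO arrays, replicate 2 was above the lowest WT array. The difference was -0.93 log2 (SE 0.19, adjusted p = 0.0164) and -0.91 within set 1 (adjusted p = 0.0249), and the call was lost without DEN p53KO replicate 1 (adjusted p = 0.0730).

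Apaf1 depends on how the sets are treated. Its signal was 5.33, 5.56, 6.14, 6.26 and 6.02 log2 in DEN p53KO livers, against 6.44, 6.46, 6.04, 6.05 and 5.84 in DEN WT livers. The p53KO arrays of set 1, replicates 1 and 2, were the low ones, and those of set 3 lay inside the WT range. Apaf1 carried a set 3 term of 0.64 log2, beside a median of -0.05 over all genes. The difference was -0.76 log2 with the set term (SE 0.16, adjusted p = 0.0205) and -0.87 within set 1 (adjusted p = 0.00517), but -0.30 without the term (adjusted p = 0.333) and -0.57 with the set as a random block (adjusted p = 0.0605). It was also lost without DEN WT replicate 2 (adjusted p = 0.0521) and without DEN p53KO replicate 1 (0.0959) or 2 (0.0681).

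Aen was at 5.08, 4.84, 5.07, 5.14 and 4.53 log2 in DEN p53KO livers, against 5.74, 5.60, 5.56, 5.61 and 5.38 in DEN WT livers. Every p53KO array was below every WT array, and how many of all genes are separated in this way was not counted. The difference of -0.63 log2 (95% interval -0.99 to -0.26, adjusted p = 0.0664) missed the threshold, and was -0.67 within set 1 (adjusted p = 0.0114) and -0.63 with the set as a random block (adjusted p = 0.0319).

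Eda2r had 4.00, 3.97, 4.07, 4.20 and 3.47 log2 in DEN p53KO livers, against 4.84, 5.35, 4.25, 4.02 and 3.35 in DEN WT livers. The WT arrays ran both above and below those of p53KO. The difference was -0.86 log2 (95% interval -1.43 to -0.29, adjusted p = 0.103), called within set 1 (-0.83, adjusted p = 0.0261) and without DEN WT replicate 5 (-0.98, adjusted p = 0.0470).

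The Fas receptor gene was not called. It was at 7.50, 7.72, 7.41, 7.63 and 7.22 log2 in DEN p53KO livers, against 8.12, 8.26, 7.95, 7.80 and 6.89 in DEN WT livers. Apart from WT replicate 5, the WT arrays were higher. The fitted difference was -0.21 log2 (95% interval -0.62 to 0.19, adjusted p = 0.635), and within set 1 it was -0.50 (adjusted p = 0.0308). Perp differed by -0.31 (95% interval -0.75 to 0.14), Pmaip1 by -0.10 (-0.41 to 0.20) and Bbc3 by 0.00 (-0.32 to 0.32).

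With Rb deleted, p53 deletion was read from DKO against RbKO livers after DEN. Here Fas and Apaf1 were lower in DKO livers, 2 of the 9 genes, against 0.884% of all genes called lower. Again all 9 estimates were below 0, with a median of -0.62 log2, beside -0.02 over all genes tested, of which 47.1% were above 0.

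Fas was at 7.39, 7.69, 7.42, 7.02 and 6.69 log2 in DEN DKO livers, against 8.18, 8.20, 8.24 and 7.85 in DEN RbKO livers. The groups did not overlap. Fas fell by 0.81 log2 in DKO livers (SE 0.18, adjusted p = 0.0288), and by 0.71 within set 1 (adjusted p = 0.00508). The call was lost without any one of the 4 RbKO arrays and without DKO replicate 1 or 3, at adjusted p between 0.0561 and 0.0810. It was lost as well without the set term (-0.87, adjusted p = 0.0761), without set 3 (-0.72, adjusted p = 0.0861) and after a second quantile normalization (-0.72, adjusted p = 0.0650).

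Apaf1 was at 5.78, 5.46, 5.75, 6.60 and 5.91 log2 in DEN DKO livers, against 6.72, 6.17, 6.22 and 6.31 in DEN RbKO livers. DKO replicate 4, of set 3, was the one DKO array inside the RbKO range. The difference was -0.75 log2 (SE 0.15, adjusted p = 0.0137), -0.70 within set 1 (adjusted p = 0.0202) and -0.45 without the set term (adjusted p = 0.451). It was lost without RbKO replicate 1 (adjusted p = 0.0810) or DKO replicate 2 (0.0541), with the set as a random block (-0.63, adjusted p = 0.0833) and with only these 2 groups in the fit (-0.70, adjusted p = 0.152).

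Eda2r and Tnfrsf10b had the larger differences but also the larger errors. Eda2r was at 3.75, 3.59, 3.88, 4.80 and 4.52 log2 in DEN DKO livers, against 4.88, 4.62, 4.92 and 4.87 in DEN RbKO livers, with a difference of -1.0 (95% interval -1.53 to -0.46, adjusted p = 0.0580; -1.07 within set 1, adjusted p = 0.00710). Tnfrsf10b was at 4.68, 4.34, 4.79, 5.04 and 4.32 log2 in DEN DKO livers, against 5.85, 5.25, 5.09 and 5.22 in DEN RbKO livers, with a difference of -0.82 (95% interval -1.26 to -0.38, adjusted p = 0.0580). The Tnfrsf10b groups did not overlap, and those of Eda2r overlapped at DKO replicate 4. Without that array both were called (Eda2r -1.07, adjusted p = 0.0352; Tnfrsf10b -0.88, adjusted p = 0.0319), and Tnfrsf10b was also called without RbKO replicate 3 (-0.96, adjusted p = 0.0457) and with Xist as a covariate (-0.84, adjusted p = 0.0474).

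Phlda3 differed by -0.62 log2 (95% interval -0.99 to -0.24, adjusted p = 0.0984) and Perp by -0.61 (-1.03 to -0.18, adjusted p = 0.163). Within set 1 they differed by -0.67 (adjusted p = 0.103) and by -0.63 (adjusted p = 0.0636). Perp was at 7.19, 6.96, 7.07, 6.82 and 6.50 log2 in DEN DKO livers, against 7.92, 7.51, 7.69 and 7.42 in DEN RbKO livers. All DKO arrays were below all RbKO arrays. How many of all genes are separated in this way, as Fas, Tnfrsf10b and Perp are, was not counted. Pmaip1 differed by -0.25 (-0.54 to 0.04), Bbc3 by -0.19 (-0.49 to 0.12) and Aen by -0.17 (-0.52 to 0.17), and none of these 3 passed the test.

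Over both Rb states, p53 deletion lowered 4 of the 9 genes after DEN: Apaf1, Tnfrsf10b, Phlda3 and Eda2r. In the same test 1.5% of all genes were called lower. This mean effect, from 10 arrays without p53 and 9 with it, was -0.76 log2 for Apaf1 (SE 0.12, adjusted p = 0.00131), -0.89 for Tnfrsf10b (SE 0.17, adjusted p = 0.00657), -0.77 for Phlda3 (SE 0.15, adjusted p = 0.00569) and -0.93 for Eda2r (SE 0.21, adjusted p = 0.0204). The remaining genes of the 9 had estimates below 0 without passing the test, where 47.5% of all genes were above 0. They were Fas at -0.51 (95% interval -0.82 to -0.20), Perp at -0.46 (-0.80 to -0.11), Aen at -0.40 (-0.68 to -0.12) and, with intervals that include 0, Pmaip1 at -0.18 (-0.41 to 0.06) and Bbc3 at -0.09 (-0.34 to 0.15). Within set 1, the first 7 of these were called, with values from -0.42 (Aen, adjusted p = 0.0176) to -0.95 (Eda2r, adjusted p = 0.000655), and Bbc3 and Pmaip1 were not.

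No gene of the 9 had all 10 arrays without p53 below all 9 arrays with it, which held for 0.182% of all genes. The call of Apaf1 was lost without the set term (-0.38, adjusted p = 0.105), as was that of Eda2r (-0.57, adjusted p = 0.0818). Under the same setting Fas (-0.59, adjusted p = 0.0193), Aen (-0.42, adjusted p = 0.0262) and Perp (-0.60, adjusted p = 0.0267) were called. The genes called thus changed with the set term, whereas Tnfrsf10b and Phlda3 were called under all 15 other settings, some of which leave their estimates unchanged. Eda2r was also lost without DEN WT replicate 2 (adjusted p = 0.0507), DEN DKO replicate 1 (0.0582) or DEN DKO replicate 2 (0.0587), and Fas was called without DEN WT replicate 5 (-0.54, adjusted p = 0.0122) and with the set as a random block (-0.53, adjusted p = 0.0437). Apaf1, Tnfrsf10b and Phlda3 kept their calls without any one of the 19 arrays.

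**Figure D3:**
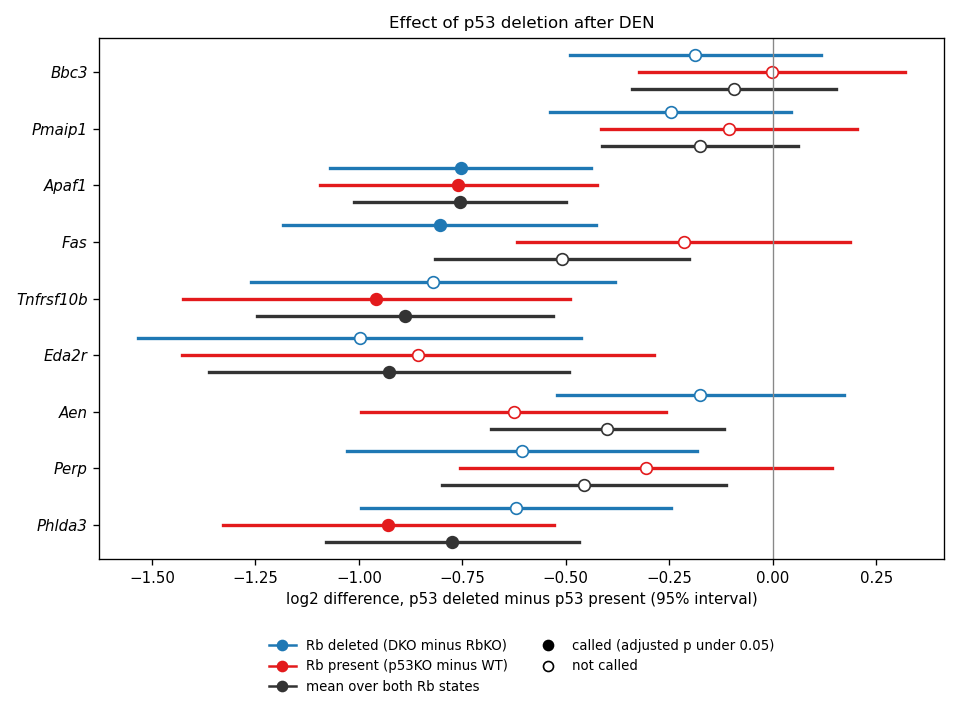
Log2 difference between livers with p53 deleted and livers with p53 present after DEN (x axis) for each gene (y axis), with Rb deleted, with Rb present and as the mean over both, with 95% intervals. Filled points passed the threshold; in the mean effect these are Apaf1, Tnfrsf10b, Eda2r and Phlda3, and Bbc3 lies at -0.09.

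Whether the effect of p53 deletion differed with Rb was tested as its effect with Rb deleted minus that with Rb present. By limma 0 of the 9 genes were called, against 0.426% of all genes called in either direction. At an unadjusted p under 0.05 there were 2 of the 9, against 17.9% of all genes, which is near the background. Those 2 point opposite ways: Fas, at -0.59 log2 (95% interval -1.07 to -0.11, adjusted p = 0.180), had the lower value with Rb deleted, and Aen, at 0.45 (0.01 to 0.89, adjusted p = 0.267), with Rb present. Apaf1 (0.01, interval -0.40 to 0.41) had the same estimate in both Rb states, within an interval that still allows a moderate difference.

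The effect of Rb deletion with p53 present was read in the same way. In RbKO against WT livers only Phlda3 was called lower, 1 of the 9 genes against 6.13% of all genes, which is near the background. Phlda3 was at 6.42, 5.58, 5.90 and 5.46 log2 in DEN RbKO livers, against 6.91, 6.73, 6.10, 5.89 and 5.75 in DEN WT livers. These ranges overlap, and the difference was -0.52 log2 (SE 0.17, adjusted p = 0.0457), or -0.61 within set 1 (adjusted p = 0.104). The call was lost without any of DEN WT replicates 1, 2, 4 and 5 or DEN RbKO replicates 2, 3 and 4, at adjusted p between 0.0536 and 0.162, with Xist as a covariate (0.0770) and with the set as a random block (0.0744). Aen was at 5.05, 5.18, 5.42 and 5.09 log2 in DEN RbKO livers, of which 3 lay under all DEN WT arrays; its difference was -0.41 (95% interval -0.73 to -0.09, adjusted p = 0.0876). The other 7 genes differed by between -0.29 (Tnfrsf10b) and 0.39 (Eda2r).

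Between DKO and p53KO livers after DEN, 0 of the 9 genes were called by limma, against 1.87% of all genes called in either direction. At an unadjusted p under 0.05 there was 1 of the 9 (Fas), against 16.2% of all genes. Fas differed by -0.34 log2 (95% interval -0.67 to 0.00, adjusted p = 0.299), by -0.11 within set 1 and by -0.56 within set 3. For 4 genes the difference had one sign within set 1 and the other within set 3. Pmaip1 had -0.26 and 0.28, Bbc3 -0.22 and 0.09, and Aen 0.09 and -0.01. Eda2r, the fourth, had the widest gap: it differed by 0.25 in all, by -0.25 within set 1 and by 0.75 within set 3, where DKO replicates 4 and 5 had 4.80 and 4.52 log2.

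With both genes deleted, 5 of the 9 genes were lower than in WT livers after DEN, against 9.14% of all genes called lower. They were Phlda3 (-1.14, SE 0.18, adjusted p = 0.000285), Tnfrsf10b (-1.11, SE 0.21, adjusted p = 0.00137), Apaf1 (-0.59, SE 0.15, adjusted p = 0.0118), Aen (-0.58, SE 0.17, adjusted p = 0.0230) and Fas (-0.55, SE 0.18, adjusted p = 0.0474). Within set 1 these 5 differed by between -0.58 (Aen) and -1.29 (Phlda3), and all were called. Eda2r differed by -0.60 (adjusted p = 0.132) and Perp by -0.59 (adjusted p = 0.0583) over all arrays. Within set 1 both were called, Eda2r at -1.07 (adjusted p = 0.00153) and Perp at -0.69 (adjusted p = 0.0128), which makes 7 of the 9. Of 10 endothelial markers 7 were lower in the same comparison, with a median of -0.71 log2, and their part in these values was not tested. Of the called genes, Aen was lost without DEN WT replicate 1 (adjusted p = 0.0631) or DEN DKO replicate 2 (0.0667), and Fas without any of DEN WT replicates 1 to 4 or DEN DKO replicates 1, 3, 4 and 5 (adjusted p between 0.0537 and 0.147). Without the set term Apaf1 (-0.27, adjusted p = 0.396) and Fas (-0.56, adjusted p = 0.0660) were not called either. Fas was also lost with Xist as a covariate (adjusted p = 0.0840), with no filter on dim genes (0.0538), after a second quantile normalization (0.0917), with centring on the genes tested (0.0976), without set 3 (0.130) and with only these 2 groups in the fit (0.120). Aen was lost with that centring (0.0521) and with only these groups (0.143), and Apaf1 with only these groups (0.0742) and with the set as a random block (-0.45, adjusted p = 0.0705). Conversely, Eda2r was called without set 2 (-0.87, adjusted p = 0.0191), without set 3 (-0.80, adjusted p = 0.0460), with array weights (-0.93, adjusted p = 0.00758), with only these groups (-1.07, adjusted p = 0.0295) and without DEN WT replicate 5 (-0.72, adjusted p = 0.0434). Perp was called under 6 settings besides set 1 alone (adjusted p between 0.0195 and 0.0489), and without DEN WT replicate 3 (-0.73, adjusted p = 0.0247) or 4 (-0.63, adjusted p = 0.0494) or DEN DKO replicate 4 (-0.62, adjusted p = 0.0496).

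What was left of the DEN level without p53 is shown by DEN p53KO against untreated WT livers, which differ in genotype and treatment together. Of the 9 genes 0 were called by limma, against 3.17% of all genes called higher. At an unadjusted p under 0.05 there were 2 of the 9 (Fas and Phlda3), against 20.3% of all genes, which is near the background. Fas was 0.65 log2 higher (95% interval 0.21 to 1.09, adjusted p = 0.0645), and was called within set 1 (0.73, adjusted p = 0.00123) and without untreated WT replicate 3 (0.86, adjusted p = 0.00699). Phlda3 was 0.50 higher (0.06 to 0.93, adjusted p = 0.170), against 1.43 for DEN WT over the same untreated arrays. Tnfrsf10b was 0.17 higher (-0.34 to 0.68), against 1.13 for DEN WT. Apaf1 differed by -0.21 (-0.57 to 0.16), against 0.55 for DEN WT, and Aen by 0.33 (-0.07 to 0.73), against 0.95. Eda2r differed by 0.34 (-0.28 to 0.96, adjusted p = 0.589) and was called within set 1 (0.85, adjusted p = 0.0120), with its untreated arrays under the cut for dim genes.

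Endothelial markers moved with p53 deletion as well. Of 10 tested, 3 were lower with p53 deleted after DEN, beside 1.5% of all genes, with a median of -0.50 log2 over the list. The mean level of the list ran from 5.75 to 6.10 log2 in DEN DKO livers and from 5.87 to 6.26 in DEN p53KO livers, against 6.18 to 6.45 in DEN RbKO livers and 6.36 to 6.73 in DEN WT livers. Of 10 stellate cell and fibroblast markers 0 were called, with a median of -0.17. Their mean level ran from 5.58 to 5.83 log2 in DEN DKO and from 5.57 to 5.75 in DEN p53KO livers. It ran from 5.92 to 6.00 in DEN RbKO and from 5.77 to 6.08 in DEN WT livers. Of 9 neutrophil and myeloid precursor markers 1 was lower. The part of these cell types in the lower values of the receptors and of Apaf1 was not tested. Of the 9 hepatocyte markers 0 were called in that comparison, with a median of -0.02. With DEN, 1 was lower in WT livers, and 2 were lower and 1 higher in DKO livers. After DEN, 2 were lower in RbKO and 1 in DKO than in WT livers, and 2 were lower in DEN p53KO than in untreated WT livers. Their mean level ran from 11.10 to 11.19 log2 in DEN DKO and 11.01 to 11.29 in DEN RbKO, against 11.23 to 11.53 in DEN WT livers. Their part in the values was not tested.

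Across arrays, after the set terms were removed, Tnfrsf10b went most closely with Phlda3 (Pearson's r = 0.89) and with Apaf1 (0.88), and Eda2r had r = 0.83 with Tnfrsf10b. The lowest correlation was that of Pmaip1 with Fas (0.37). The genes outside the list most like Apaf1, the member with the smallest p for p53 deletion, were Arap2 (r = 0.92), Utp20 (0.92), Plod2 (0.89), Abcb1b (0.89) and Rev1 (0.89). These correlations are over the same 25 arrays and so share the groups.

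The remaining p53 response was followed in lists of other targets. These lists were chosen with earlier results of these data known, so their counts are a description. Of 23 targets of arrest, repair and feedback, 11 rose with DEN in WT livers, against 2.08% of all genes called higher. Of the 23, 0 fell and 12 were not called, with a median of 0.79 log2. The largest by p were Ccng1 (cyclin G1; 2.49, SE 0.21, adjusted p = 3.70e-08), Ckap2 (a spindle protein; 2.02, SE 0.23, adjusted p = 6.28e-06), Polk (a translesion polymerase; 1.29, SE 0.15, adjusted p = 9.88e-06) and Ddias (2.56, SE 0.31, adjusted p = 1.09e-05). In DKO livers 8 of the 23 rose, beside 4.49% of all genes, 3 fell, beside 16.5% of all genes, and 12 were not called; Ccng1 (2.04), Ddias (2.29), Ckap2 (1.35) and Polk (0.87) were again first by p. With p53 deleted 8 of the 23 were lower after DEN, beside 1.5% of all genes, and 0 were higher, with a median of -0.41. First by p were Polk (-0.90), Psrc1 (-1.01), Mdm2 (the ubiquitin ligase of p53, -1.03) and Dcxr (-0.82).

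Of 13 other p53 targets tied to death, 2 rose with DEN in WT livers, beside 2.08% of all genes. The other 11 were not called, and the median was 0.14 log2. The 2 were Siva1 (1.25, SE 0.18, adjusted p = 0.000154), which binds members of the TNF receptor family, and Ctsd (cathepsin D, 0.94, SE 0.14, adjusted p = 0.000218). In DKO livers Ctsd fell by 0.54 (adjusted p = 0.00939) and the difference of its responses was -1.48 (SE 0.20, adjusted p = 0.000117). With p53 deleted 3 of the 13 were lower after DEN, beside 1.5% of all genes: Ctsd (-0.77), Siva1 (-0.78) and Trp53inp1 (-0.73, adjusted p = 0.0370).

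Genes of the death machinery outside these lists of targets were followed too. Of 22 genes of the mitochondrial pathway, 0 were called with DEN in WT livers, with a median of 0.06 log2. In DKO livers 8 fell, beside the 16.5% of all genes called lower there, and 1 rose, among them Casp6 (an effector caspase; -0.66, adjusted p = 0.00134), Bak1 (a pore-forming protein; -0.62, adjusted p = 0.00447), and Cycs (cytochrome c; 0.74, adjusted p = 0.00151). With p53 deleted 1 of the 22 was lower, beside 1.5% of all genes. It was Bcl2l1 (the survival protein Bcl-xL, -0.61, SE 0.14, adjusted p = 0.0180). With each array centred on the median of the genes tested, a shift of 0.11 log2 in the median gene in DKO livers, 4 of the 22 fell there, and 4 fell after a second quantile normalization.

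Of 17 genes of the death receptor pathway tested, 3 rose with DEN in WT livers, beside 2.08% of all genes, with a median of 0.13 log2. They were Tnfrsf1a (a TNF receptor, 0.53, adjusted p = 0.00929), Mlkl (the effector of necroptosis, 0.91, adjusted p = 0.0144) and Tnfrsf12a (the receptor of TWEAK, 0.77, adjusted p = 0.0367). In DKO livers Tnfrsf1a fell by 0.52 (adjusted p = 0.00333), and the difference of its responses was -1.05 (SE 0.17, adjusted p = 0.000507). Cflar, which encodes the caspase-8 inhibitor cFLIP, was called the other way in that difference (0.57, adjusted p = 0.0339). With p53 deleted 0 of the 17 were called by limma, with a median of -0.03, beside the 2 receptors Tnfrsf10b and Eda2r among the 9 genes.

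**Figure D4:**
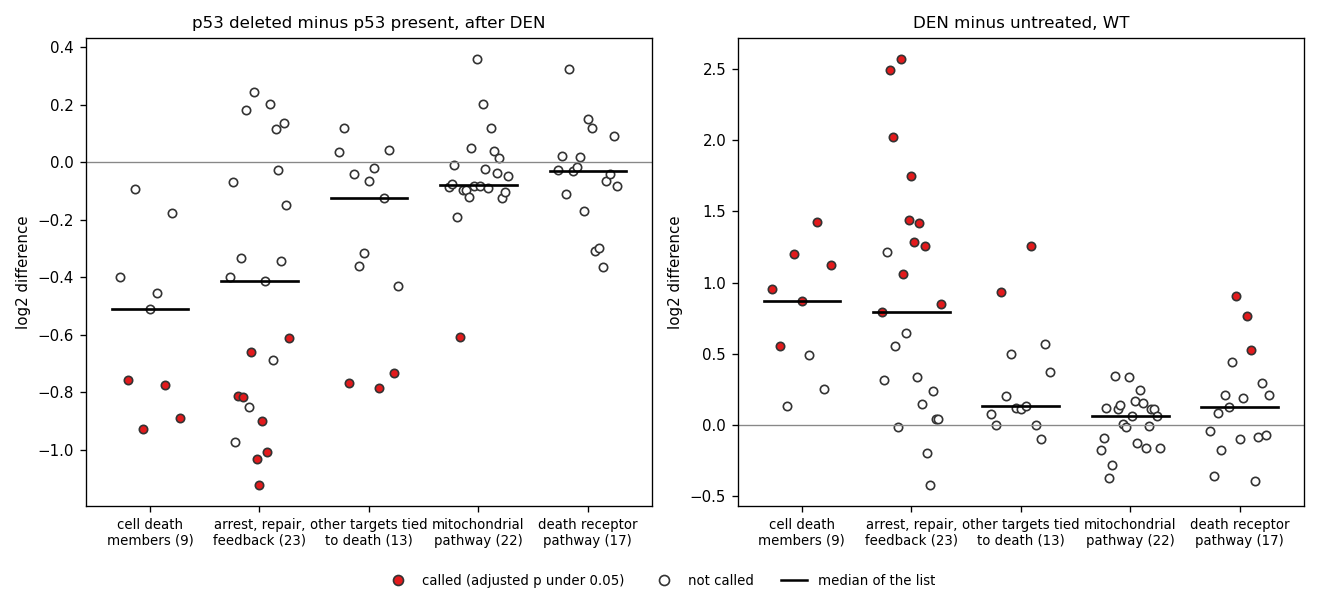
Log2 difference (y axis) of each gene of 5 lists (x axis, number tested in brackets), for p53 deleted minus p53 present after DEN (left) and DEN minus untreated in WT livers (right). Points are genes, filled where they passed the threshold, and bars are medians: -0.51 and 0.87 for the 9 cell death genes, -0.41 and 0.79 for arrest, repair and feedback.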

How the data were processed

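RNA from frozen liver was amplified, labelled and hybridized to 25 arrays, per the labels' protocols. The deposited values are log2 signals that the authors made with RMA (background correction, quantile normalization, median polish) in Affymetrix Expression Console 1.1, per the submitters' processing notes. Whether the arrays were normalized in 1 run, and the genome build, are not given in the sources used here. Of 35555 probe sets, 21789 with 1 gene symbol gave 19938 genes (highest mean kept). The 15951 with a mean over all arrays above the 20th percentile (3.33 log2) were tested.

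One limma 3.58.1 model (lmFit, eBayes; R 4.3.3) held the means of the 6 groups and fixed array set terms, and gave 12 comparisons. Tests were two-sided, with Benjamini-Hochberg adjustment over the genes tested in a comparison. The calculation was tested on simulated data. The alternatives were no set term, a random set block (statmod 1.5.0), set 1 alone, no set 2, other filters, other choices between probe sets, centring, quantile normalization again, array weights, trend and robust eBayes, Xist as a covariate, only the groups compared, and each array left out. Centring on the genes tested and leaving out set 3 were added after seeing the data.

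The members and lists were chosen with earlier results of these data known. All members are named. Of each other list up to 4 genes are named in order of p, and the 5 genes most like the member with the smallest p for p53 deletion. Replicate numbers follow accession order and pair nothing.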

Additional observations from a re-analysis of the deposited data

Results flagged for a closer look

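In DEN RbKO livers, 1 of the 4 arrays lay far below the others for 3 genes, a different array each time. Pmaip1 was at 4.92 log2 in replicate 3, against 5.31 to 5.33 in the others. Fas was at 7.85 log2 in replicate 4, the array of set 2, against 8.18 to 8.24. Eda2r was at 4.62 log2 in replicate 2, against 4.87 to 4.92. These are 3 of 36 combinations of gene and group examined for such a gap, and chance alone gives about 1 in 20.

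The response of Fas to DEN differed between the genotypes, with the response in DKO minus that in WT livers at -1.19 log2 by limma. The neutrophil and endothelial marker values given beside this result in the text move in the same comparison, and their part in it was not tested.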

How the results depend on the processing

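Counts of the 9 genes called are given here with the values that moved by more than 1.5 times, and no called value changed sign under any setting. Without the set term the counts were 3 for DEN in WT, 1 for DEN in DKO, 0 for DKO against RbKO and 0 for RbKO against WT. With a random set block they were 1 for DKO against RbKO and 0 for RbKO against WT. Within set 1 they were 3 for the difference of responses, 6 for p53KO against WT, 7 for p53 deleted against present, 0 for RbKO against WT, 1 for untreated DKO against WT and 2 for DEN p53KO against untreated WT. Without set 2 these were 2 for the difference of responses, 0 for RbKO against WT, 1 for untreated DKO against WT and 1 for DEN p53KO against untreated WT. Array weights gave 3 for the difference of responses, 5 for p53KO against WT, 4 for DKO against RbKO, 2 for untreated DKO against WT and 2 for DEN p53KO against untreated WT. With only the groups compared in the fit, and so fewer arrays, the counts were 3 for DEN in WT, 1 for p53KO against WT, 0 for RbKO against WT, 3 for DKO against WT after DEN, 2 for untreated DKO against WT and 3 for DEN p53KO against untreated WT. Centring each array on its median gave 2 for the difference of responses and 4 for DKO against RbKO, and a second quantile normalization gave 1 for DEN in DKO and 1 for DKO against RbKO. RbKO against WT had 0 with no filter on dim genes, 0 with Xist as a covariate, 0 with centring on the genes tested (which gave 3 for DKO against WT after DEN) and 2 without set 3. Apart from the alternatives whose own construction removes arrays, the cause was not tested. With 1 array left out, the counts ran from 3 to 6 for DEN in WT, 1 to 3 for DEN in DKO, 1 to 2 for the difference of responses, 0 to 4 for p53KO against WT, 0 to 4 for DKO against RbKO, 3 to 5 for p53 deleted against present, 0 to 1 for RbKO against WT, 3 to 6 for DKO against WT after DEN, 0 to 1 for untreated DKO against WT and 0 to 1 for DEN p53KO against untreated WT, and stayed at 0 for DKO against p53KO and for the difference of p53 effects between Rb states. Over all genes, counts called ran over the alternatives from 142 to 1943 for DEN in WT (636 as reported), 664 to 2391 for the difference of responses (1580), 154 to 1256 for p53KO against WT (284), 30 to 280 for DKO against RbKO (164), 147 to 944 for p53 deleted against present (279), 1 to 210 for the difference of p53 effects (68), 193 to 2134 for RbKO against WT (1811), 27 to 777 for DKO against p53KO (298), 523 to 2284 for DKO against WT after DEN (1887), 72 to 1575 for untreated DKO against WT (177) and 955 to 3368 for DEN p53KO against untreated WT (1095); for DEN in DKO they stayed within 1.5 times of 3344. With 1 array left out, these counts ran from 221 to 850 for DEN in WT (lowest without untreated WT replicate 1), 806 to 1684 for the difference of responses (without untreated WT replicate 3), 35 to 390 for p53KO against WT (without DEN p53KO replicate 2, and 57 without replicate 1), 65 to 200 for DKO against RbKO (without DEN RbKO replicate 1), 99 to 344 for p53 deleted against present (without DEN p53KO replicate 2), 6 to 303 for the difference of p53 effects (highest without DEN DKO replicate 4), 279 to 1970 for RbKO against WT (without DEN RbKO replicate 4), 142 to 267 for DKO against p53KO (without DEN DKO replicate 5), 1398 to 2114 for DKO against WT after DEN, 44 to 311 for untreated DKO against WT (without untreated DKO replicate 3) and 206 to 1844 for DEN p53KO against untreated WT (without untreated WT replicate 1), and the shares of all genes called in the text move with them. Centring on the median of all probe sets or of the genes tested moved the share of called genes that were lower to 90.9% or 52.7% for DEN in DKO (78.6% as reported), 94.8% or 63.3% for the difference of responses (86.3%), 70.6% or 47.3% for p53KO against WT (60.2%), 57.9% or 34.4% for RbKO against WT (53.9%), 87.2% or 68.3% for DKO against p53KO (80.9%), 86.7% or 57.4% for DKO against WT after DEN (77.3%) and 10.7% or 34.3% for untreated DKO against WT (22.03%). Replicate numbers came from accession order, so no paired analysis was possible because the labels share no replicate number between groups. Signal over background was not measured. Eda2r alone had all its untreated arrays under the cut for dim genes, and a cut at the 40th percentile leaves it out. The medians of the arrays ran from 4.22 to 4.43 log2. Untreated arrays of Tnfrsf10b (4.19 to 4.59), Aen (4.39 to 4.79) and, in DKO livers, Phlda3 (4.36 to 4.54) lay near them. Whether low signal limits these or other genes was not tested.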
